A study of Homo sapiens with 6 samples.

Results

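The p53 network genes described here are 30 genes taken by name from the 57905 genes of the deposited count table: 3 inhibitors of p53 and 27 genes known or reported to be switched on by p53. They were measured in RT4, an established cell line grown from a human papillary bladder tumour that had not invaded the muscle. LEADR-KD cells received 100 pmol of an siRNA against the spliced transcript of *MIR205HG*, called *LEADR*. Scramble cells received 100 pmol of a non-targeting control siRNA. Both groups were labelled wild type in genotype, both were harvested at 48 h, and poly(A) RNA of 3 samples a group was sequenced. Only 1 *LEADR* siRNA was used, so an effect of the lost transcript and an effect of that siRNA on other transcripts cannot be told apart in these libraries. The methods call the sequenced samples biological replicates without saying how they were grown, and the tests speak for the spread among these 3 libraries a group.

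p53 is a transcription factor that is stabilised when DNA is damaged or cells are under stress. It then raises genes that stop the cell cycle, start cell death, alter metabolism and help repair, and it raises *MDM2*, the ubiquitin ligase that marks p53 for destruction, so the network limits itself. RT4 cells also make p63, a relative of p53 that binds similar DNA sites and is found in the basal layer of the urothelium.

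The siRNA may act on transcripts other than its target through its seed, bases 2 to 8 of the strand loaded into the silencing complex, so both strands are shown with the seed in capitals. The complement pairs with the listed strand over its whole length and is drawn without the overhangs a supplier may add, which no source used here gives.
listed strand: aACUGGGUgcuuuauauagga
complement: uCCUAUAUaaagcacccaguu

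Totals ranged from 15706033 to 18960822 counts per library. Mitochondrial genes took 10.8% of the counts in LEADR-KD 1 against 5.73% and 4.79% in LEADR-KD 2 and 3, and 11.9% in Scramble 1 against 4.57% and 3.06% in Scramble 2 and 3, so library 1 of each group stood apart from the others. *MIR205HG*, the targeted gene, had 7.08, 11.6 and 5.72 CPM (counts scaled to a common library size, with TMM factors) in LEADR-KD 1, 2 and 3, against 30.1, 17.3 and 20.7 CPM in Scramble 1, 2 and 3. All LEADR-KD libraries were below all Scramble libraries, and the log2 fold change was -1.47 (SE 0.26, adjusted p = 0.0018 by edgeR's quasi-likelihood test). Of 17 urothelial markers, the keratins *KRT7*, *KRT8*, *KRT18* and *KRT19* lay between 410.6 and 2378 CPM in all libraries. The umbrella cell genes *UPK1B* and *UPK2* were at 76.8 to 149 and 38.5 to 60.4 CPM, and *UPK1A* and *UPK3A* were lower at 4.87 to 8.21 and 15.3 to 23.4 CPM. Of the basal markers *TP63* was at 184 to 232 CPM and *KRT5* at or below 0.340 CPM. Of the 17 markers 16 could be tested and 31.2% passed, beside 24.4% of all tested genes. *CDH1*, E-cadherin, rose by 1.11 on the log2 scale, *UPK1B*, a uroplakin, by 0.76 and *KRT18* by 0.39, while the transcription factors *ELF3* and *FOXA1* fell by 0.51 and 0.30. In fits with a library left out, the calls of *KRT18* and *FOXA1* were lost without LEADR-KD 1 (adjusted p = 0.0796 and 0.0584, edgeR), LEADR-KD 3 (0.072 and 0.083) or Scramble 2 (0.0971 and 0.097), and that of *KRT18* also without Scramble 3 (0.105). The summed level of the 17 was 8891 to 9467 CPM in LEADR-KD against 7589 to 8314 CPM in Scramble. Of 15 markers of leukocytes, endothelium, fibroblasts and muscle, 14 were in the table and 4 could be tested. Their summed level was 23.4 to 28.7 CPM in LEADR-KD against 37.2 to 39.6 CPM in Scramble, *COL3A1*, which did not pass, making up most of it. *VWF*, an endothelial gene, fell by 1.16 on the log2 scale (SE 0.25, adjusted p = 0.00553, edgeR), with 4.13, 4.46 and 2.55 CPM in LEADR-KD, against 9.89, 8.37 and 6.57 CPM in Scramble, and *CD3E*, *CD68*, *LYZ*, *COL1A2*, *DCN*, *PDGFRB* and *DES* were at 0 in all 6 libraries. The part of these cell types in the results was not tested.

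Of the 30 genes, 29 passed the filter on low counts. *PLK2* and *PPM1D* rose and *C12orf5*, *SPATA18*, *DRAM1*, *BTG2*, *RAP2B* and *AEN* fell in LEADR-KD at an adjusted p under 0.05, and 21 members did not pass. That is 27.6% of the tested members, against 24.4% of all 14178 tested genes, so the share of members that changed was near the background. In the lower direction 20.7% of members passed against 12.1% of all genes, and in the higher direction 6.90% against 12.2%. The median log2 fold change of the 29 members was -0.01, as it was over all genes, and the median size of change was 0.20 for members against 0.25 for all genes. Positive values were found for 13 members and negative values for 16. With the further condition of a log2 fold change beyond 1, 2 members remained (4.22% of all genes in either direction): *C12orf5* and *SPATA18* were lower, against 2.58% of all genes, and no member was higher, against 1.64% of all genes. That count of 0 by edgeR was also 0 at an unadjusted p under 0.05 and 0 with DESeq2. The 3 libraries of 1 group lay wholly above or below those of the other for 9 members, beside 39.8% of all genes. In the higher direction these were *PLK2*, *PPM1D* and *PLK3*, beside 19.9% of all genes, and in the lower direction *C12orf5*, *SPATA18*, *DRAM1*, *BTG2*, *AEN* and *TP53I3*, also beside 19.9% of all genes.

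**Figure D1:**
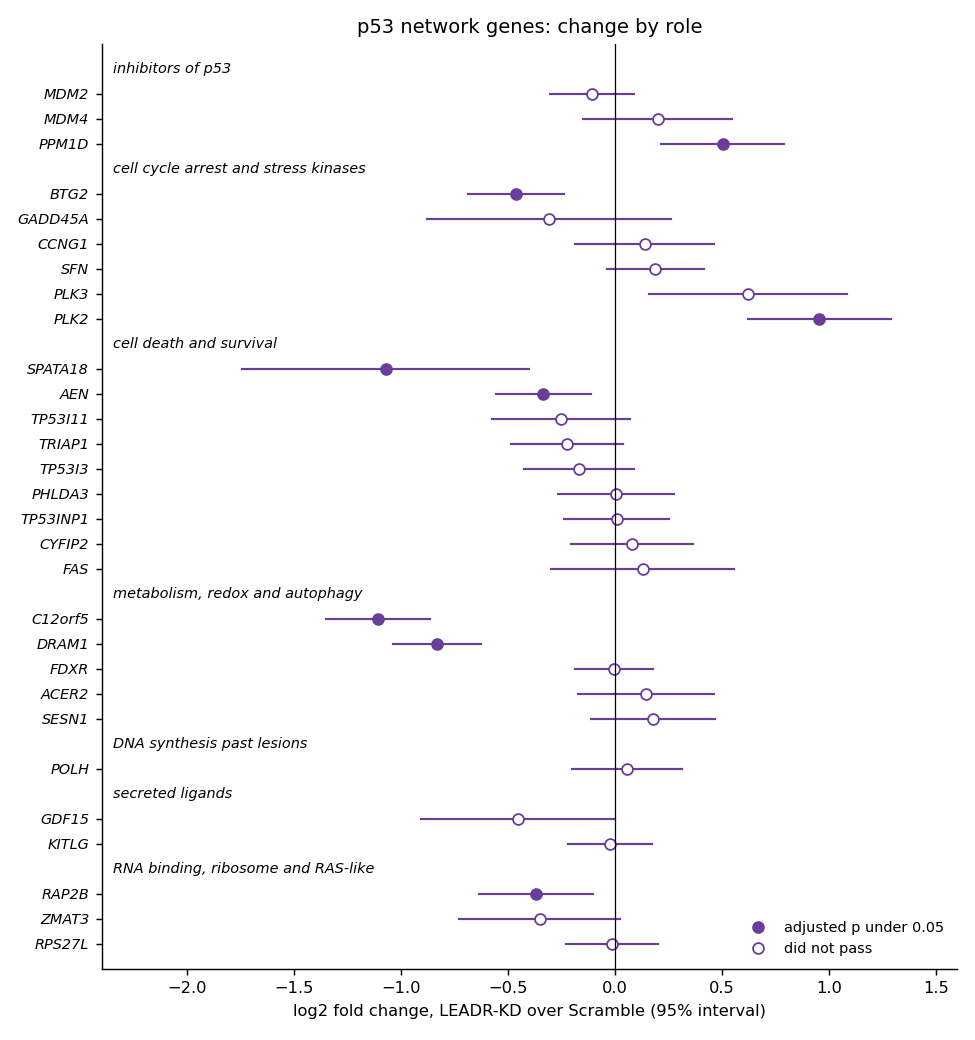
Log2 fold change of LEADR-KD over Scramble (x axis) for the 29 tested members (y axis), grouped by role. Points are the fitted values from 3 libraries a group, lines are 95% intervals and filled points passed at an adjusted p under 0.05; the 8 filled points lie on both sides of 0, from -1.11 for *C12orf5* to 0.95 for *PLK2*.

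*EDA2R*, a receptor of the TNF family, is the member that could not be tested. It had 0, 3 and 4 counts in LEADR-KD 1, 2 and 3, against 1, 1 and 0 counts in Scramble 1, 2 and 3, too few for a fold change.

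Levels between genes were compared per length, as FPKM. *PHLDA3*, *BTG2*, *CCNG1*, *SFN* and *GDF15* formed the top, with means over the 6 libraries of 118, 112, 105, 102 and 95.2 FPKM. *RAP2B* came next at 28.1 FPKM, *TRIAP1* had 25.1 FPKM, and *C12orf5* and *DRAM1* followed at 21.2 and 20.7 FPKM. At the other end were *PLK3* at 1.25 FPKM, *SPATA18* at 0.599 FPKM and *EDA2R* at 0.0234 FPKM. *MDM2* stood in the middle at 17.0 FPKM, and its partner *MDM4* was at 4.02 FPKM. Members that changed were therefore found at high, middle and low levels.

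**Figure D2:**
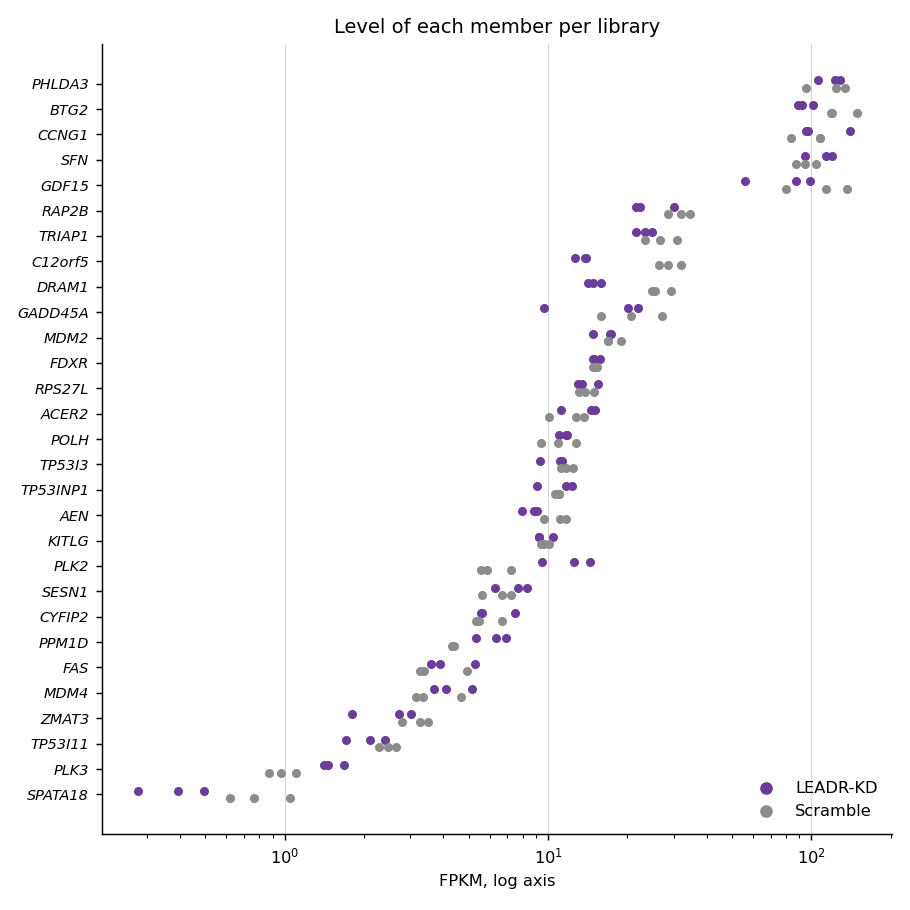
FPKM on a log axis (x) of the 29 tested members (y), ordered by their mean, with 1 point per library; LEADR-KD points are drawn above Scramble points in each row. The members span 0.277 FPKM (*SPATA18* in LEADR-KD 2) to 148 FPKM (*BTG2* in Scramble 2), and the groups separate clearly for *C12orf5*, *DRAM1* and *PLK2*.

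The 3 inhibitors of p53 gave 1 call (33.3%, beside 24.4% of all tested genes). *PPM1D* encodes the phosphatase WIP1, which removes activating phosphates from p53 and from the kinases upstream of it, and lies at chr17:58677544-58741849 (hg19, plus strand). It had 20.7, 22.7 and 17.4 CPM in LEADR-KD 1, 2 and 3, against 14.5, 14.2 and 14.3 CPM in Scramble 1, 2 and 3. Each LEADR-KD library was above each Scramble library, and the LEADR-KD libraries spread more (SD 2.69 CPM) than the Scramble libraries (SD 0.165 CPM). The log2 fold change was 0.50 (SE 0.13, adjusted p = 0.0174, edgeR). The call was lost without LEADR-KD 2 (adjusted p = 0.0815), without Scramble 2 (0.0563) and with library totals in place of TMM (0.0507). It was also lost with limma on log2(FPKM + 1) and no filter (adjusted p = 0.0594).

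*MDM2*, the ubiquitin ligase and a classical p53 target, had 139, 138 and 119 CPM in LEADR-KD, against 154, 136 and 137 CPM in Scramble. The groups overlapped, with a log2 fold change of -0.11 (95% interval -0.30 to 0.09, adjusted p = 0.427, edgeR). *MDM4*, which binds and masks the activation domain of p53, had a log2 fold change of 0.20 (95% interval -0.15 to 0.55, adjusted p = 0.413). In both groups *MDM4* was highest in library 1, at 58.5 CPM in LEADR-KD 1 and 53.9 CPM in Scramble 1.

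Among the 6 members that act on the cell cycle or are stress kinases, *PLK2* rose and *BTG2* fell (33.3% called, beside 24.4% of all tested genes). *PLK2*, at chr5:57749809-57756087 (minus strand), encodes polo-like kinase 2, which takes part in centriole duplication and is switched on by p53 after damage. Its level was 45.3, 59.95 and 68.7 CPM in LEADR-KD 1, 2 and 3, against 28.2, 26.7 and 34.9 CPM in Scramble 1, 2 and 3. The lowest LEADR-KD library stood above the highest Scramble library, so that *PLK2* was 1.94-fold higher (95% interval 1.54 to 2.45; log2 fold change 0.95, SE 0.15, adjusted p = 9.89e-04, edgeR). It passed under each of the 17 alternatives.

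*PLK3*, a related kinase that phosphorylates p53 in the stress response, had 81, 107 and 87 counts (5.07, 5.89 and 4.93 CPM) in LEADR-KD 1, 2 and 3, against 52, 66 and 65 counts (3.06, 3.39 and 3.88 CPM) in Scramble 1, 2 and 3. All LEADR-KD libraries were above all Scramble libraries, but at these counts the log2 fold change of 0.62 (SE 0.21) missed the threshold (adjusted p = 0.0519). It passed with DESeq2 size factors (0.0495), with library sizes without mitochondrial genes (0.0479), with a mean count of at least 50 (0.0466) and with limma on log2(FPKM + 1) over the same genes (0.0307).

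*BTG2*, at chr1:203274619-203278730 (plus strand), encodes an antiproliferative protein that ties the CCR4-NOT deadenylase to mRNAs. It had 253, 281 and 247 CPM in LEADR-KD 1, 2 and 3, against 329.5, 412 and 335 CPM in Scramble 1, 2 and 3. No LEADR-KD library reached the lowest Scramble library, and the log2 fold change was -0.46 (SE 0.10, adjusted p = 0.00676, edgeR). *BTG2* was thus among the most abundant members and fell to 0.725 of its Scramble level (95% interval 0.622 to 0.847). The call was lost only with limma and no filter, on log2(FPKM + 0.1) (adjusted p = 0.0625) and on log2(FPKM + 1) (0.0707).

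The remaining members of this role did not pass. *SFN*, the 14-3-3 sigma protein that holds cells in G2, had a log2 fold change of 0.19 (adjusted p = 0.225). *CCNG1*, cyclin G1, which brings a phosphatase to *MDM2*, had 0.14 (adjusted p = 0.55), and *GADD45A*, a stress sensor that binds PCNA and *CDK1*, had -0.31 (SE 0.26, adjusted p = 0.436, edgeR).

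Of the 10 cell death and survival genes 9 were tested. They held 2 calls, both lower, which is 22.2% beside 24.4% of all tested genes called in either direction. *SPATA18*, at chr4:52917497-52963458 (plus strand), encodes Mieap, a protein of mitochondrial quality control. It was scarce, with 31, 25 and 43 counts (1.94, 1.38 and 2.43 CPM) in LEADR-KD 1, 2 and 3, against 89, 60 and 64 counts (5.24, 3.08 and 3.82 CPM) in Scramble 1, 2 and 3. The groups did not overlap, and the log2 fold change was -1.07 (SE 0.31, adjusted p = 0.0251, edgeR). The call was lost without LEADR-KD 2 (adjusted p = 0.099), without Scramble 1 (0.0946) and without both libraries numbered 1 (0.114). Limma with no filter lost it too, on log2(FPKM + 0.1) (adjusted p = 0.199) and on log2(FPKM + 1) (0.151).

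*AEN*, at chr15:89164527-89175513 (plus strand), encodes an apoptosis-enhancing nuclease. It had 47.8, 54.9 and 53.5 CPM in LEADR-KD 1, 2 and 3, against 58.5, 67.3 and 71.4 CPM in Scramble 1, 2 and 3. Library 1 was the lowest of each group and the groups did not overlap, by a gap that was small beside their spread. The log2 fold change was -0.34 (SE 0.10, adjusted p = 0.0325, edgeR). The call was lost on leaving out LEADR-KD 1, 2 or 3 (adjusted p = 0.0945, 0.0635 and 0.0654) or Scramble 2 or 3 (0.0973 and 0.122), and with library totals in place of TMM (0.075). With limma it was also lost, on log2(FPKM + 0.1) (adjusted p = 0.109) and log2(FPKM + 1) (0.121) with no filter, and on log2(FPKM + 1) over the same genes (0.0586).

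The other 7 tested members of this role had log2 fold changes from -0.25 to 0.13. *TP53I11* was at -0.25 (adjusted p = 0.244), *TRIAP1*, an inhibitor of apoptosis that helps move lipids in mitochondria, at -0.23 (0.204), and *TP53I3*, a quinone oxidoreductase, at -0.17 (0.336). *TP53I3* had 26.0, 25.8 and 21.5 CPM in LEADR-KD against 28.9, 27.4 and 26.1 CPM in Scramble, groups that just failed to overlap without passing the test. *PHLDA3*, which competes with AKT for membrane lipids, was at 0.00 with a 95% interval of -0.27 to 0.27. *TP53INP1*, a regulator of autophagy and cell death, was at 0.01, *CYFIP2*, a part of the WAVE actin complex, at 0.08, and the death receptor *FAS* at 0.13 (adjusted p = 0.682, edgeR).

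The 5 genes of metabolism, redox balance and autophagy held the firmest falls, with 2 called (40%, beside 24.4% of all tested genes). *C12orf5*, now named *TIGAR*, lies at chr12:4430371-4462338 (plus strand) and encodes an enzyme that lowers fructose-2,6-bisphosphate and so slows glycolysis. It had 20.2, 22.4 and 22.3 CPM in LEADR-KD 1, 2 and 3, against 42.5, 46.0 and 51.8 CPM in Scramble 1, 2 and 3. The highest LEADR-KD library was far below the lowest Scramble library, and *C12orf5* fell to 0.463 of its Scramble level (95% interval 0.391 to 0.549; log2 fold change -1.11, SE 0.11, adjusted p = 4.04e-05, edgeR).

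*DRAM1*, at chr12:102271129-102405908 (plus strand), encodes a lysosomal membrane protein that promotes autophagy. Its level was 57.3, 60.6 and 64.6 CPM in LEADR-KD 1, 2 and 3, against 101.4, 104.1 and 120.2 CPM in Scramble 1, 2 and 3. Again no libraries overlapped, and the log2 fold change was -0.84 (SE 0.09, adjusted p = 9.14e-05, edgeR), a level of 0.561 of Scramble (95% interval 0.486 to 0.646). Both *C12orf5* and *DRAM1* passed under all 17 alternatives. The other genes of this role did not pass: the ferredoxin reductase *FDXR* was at -0.01 (95% interval -0.19 to 0.18), the ceramidase *ACER2* at 0.15 (-0.17 to 0.46) and *SESN1*, an inhibitor of mTORC1, at 0.18 (-0.11 to 0.47).

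**Figure D3:**
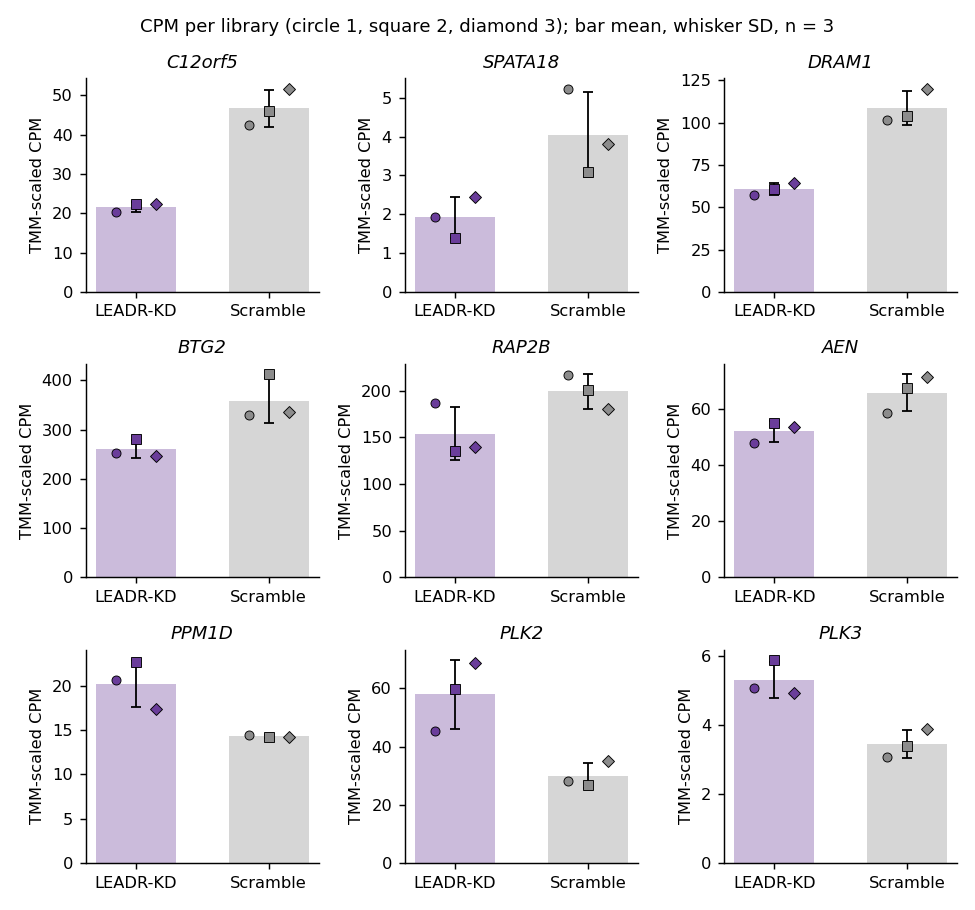
CPM scaled by TMM (y axes, each starting at 0) in LEADR-KD (left) and Scramble (right) for the 8 members that passed and *PLK3*, with 1 symbol per library, bars at the mean and whiskers of 1 SD (n = 3). Groups are separate in each panel other than *RAP2B*, where LEADR-KD 1 at 187 CPM lies above Scramble 3 at 180 CPM.

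*RAP2B*, at chr3:152880029-152886265 (plus strand), encodes a small GTPase of the RAS family. It had 187, 136 and 140 CPM in LEADR-KD 1, 2 and 3, against 217, 200.3 and 180 CPM in Scramble 1, 2 and 3. Library 1 was the highest of each group and the groups overlapped, with a log2 fold change of -0.37 (SE 0.12, adjusted p = 0.0444, edgeR). This call was lost without LEADR-KD 2 (0.181), LEADR-KD 3 (0.152), Scramble 1 (0.135) or Scramble 2 (0.104), and with DESeq2 size factors (0.0506). All limma fits lost it too, on log2(FPKM + 0.1) (adjusted p = 0.195) and log2(FPKM + 1) (0.221) with no filter, and on log2(FPKM + 1) over the same genes (0.0798).

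*ZMAT3*, an RNA-binding regulator of splicing, was at -0.35 (SE 0.17, adjusted p = 0.167), with 29.1, 26.4 and 17.4 CPM in LEADR-KD against 34.0, 31.8 and 27.2 CPM in Scramble. *RPS27L*, a ribosomal protein paralog that binds *MDM2*, was at -0.01 (95% interval -0.23 to 0.20). Whether its reads are shared with the related gene *RPS27* was not tested. *RPS27L* overlaps *LACTB* on the other strand, whose count was 136% of that of *RPS27L*. *POLH*, the polymerase that copies past ultraviolet lesions, was at 0.05 (95% interval -0.20 to 0.31) and overlaps *GTPBP2*, whose count was 145% of that of *POLH*. For *FAS* and *ACTA2*, *TP53INP1* and *NDUFAF6*, and *TP53I3* and *FAM228B* the overlapping partner had 19.4%, 23.5% and 5.98% of the member's count, and no source used here says whether reads were counted by strand. No called member overlapped a gene with more than 2 counts over the 6 libraries.

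The secreted members did not pass. *GDF15*, a stress cytokine, had 117, 207 and 183 CPM in LEADR-KD 1, 2 and 3, against 169, 238 and 287 CPM in Scramble 1, 2 and 3. Library 1 was the lowest of each group, the groups overlapped, and the log2 fold change was -0.45 (SE 0.21, adjusted p = 0.137, edgeR). It was called without Scramble 1 (0.0405), without both libraries numbered 1 (0.0126) and with no filter on low genes (8.16e-05). *KITLG*, the ligand of the receptor KIT, was at -0.03 (95% interval -0.22 to 0.17).

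Of the 21 members that did not pass, 17 had a 95% interval inside a 1.5-fold change in either direction. For *GADD45A*, *GDF15*, *PLK3* and *ZMAT3* the interval reached further.

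The position of library 1 recurred among the members. *AEN*, *C12orf5*, *DRAM1*, *GADD45A*, *GDF15*, *PHLDA3*, *SESN1* and *SFN* were lowest in library 1 of both groups, 27.6% of tested members against 20.5% of all tested genes. *ACER2*, *CCNG1*, *CYFIP2*, *MDM2*, *MDM4*, *RAP2B*, *RPS27L*, *TP53I3* and *ZMAT3* were highest there, 31.0% against 17.8%. *GADD45A*, for example, had 19.98 CPM in LEADR-KD 1 beside 41.8 and 45.5 CPM in LEADR-KD 2 and 3, and 33.3 CPM in Scramble 1 beside 43.2 and 56.8 CPM in Scramble 2 and 3. *CCNG1* had 433 CPM in LEADR-KD 1 beside 302 and 296 CPM in LEADR-KD 2 and 3, and 338 CPM in Scramble 1 beside 337 and 262 CPM in Scramble 2 and 3. The high mitochondrial share was found in the same libraries, and its part in these levels was not tested.

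**Figure D4:**
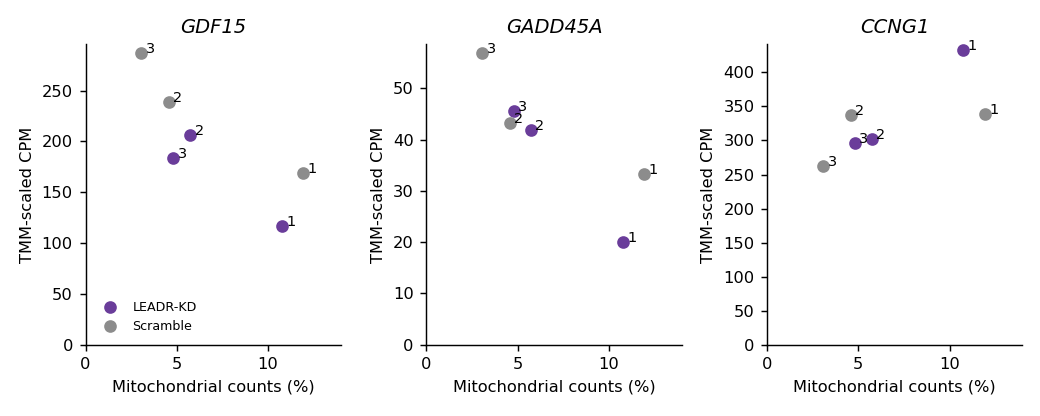
CPM of *GDF15*, *GADD45A* and *CCNG1* (y axes, from 0) against the share of counts on mitochondrial genes (x axes, percent), with 1 point per library marked by its number. Library 1 of both groups lies at the right, at 10.8% (LEADR-KD) and 11.9% (Scramble), with the lowest *GDF15* and *GADD45A* of its group and the highest *CCNG1*.

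The transcripts of the members were searched for the seed of the siRNA. A match means the letters that pair with bases 2 to 8, ACCCAGT for the listed strand and ATATAGG for its complement, and an 8-base match adds an A after them (ACCCAGTA), searched on the transcript's own strand in the 3′ UTR of 1 GENCODE transcript per gene on GRCh37, the build also called hg19. The 8-base match contains the 7-base match. Of the 28 tested members with such a transcript (*FAS* had none), 4 held a match for the listed strand, 14.3% against 11.8% of 12062 tested genes. Of these 4 members 3, *AEN*, *RAP2B* and *SPATA18*, are among the 6 that fell, beside 26.4% lower among the 1427 tested genes with such a match. Their calls held under only 8, 9 and 12 of the 17 alternatives. The fourth, *CYFIP2*, was at 0.08 (adjusted p = 0.713, edgeR). The sites are shown with the match in capitals.
AEN chr15:89174325-89174353: ttccccagtccACCCAGTActgggctctt
RAP2B chr3:152885183-152885211: tccagtttcttACCCAGTgggtctcgggt
SPATA18 chr4:52961065-52961093: ctgctcctttgACCCAGTgcgtggaaaca
CYFIP2 chr5:156820361-156820389: agacatctcctACCCAGTgcccttgtgtg

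All 4 sites lie on the plus strand. Over all tested genes with a 3′ UTR, the 293 with an 8-base match for the listed strand had a median log2 fold change of -0.23, and 36.2% of them fell while 6.83% rose. The 1134 with only a 7-base match had a median of -0.09, with 23.9% lower and 11.4% higher. The 10635 without one had a median of 0.02, with 11.1% lower and 14.5% higher. These classes were not matched for the length of the 3′ UTR. *C12orf5*, *DRAM1* and *BTG2*, the other members that fell, held no match for either strand in the 3′ UTR or before it. Without the members that hold a match for either strand in the 3′ UTR, 3 members were lower and 2 higher. A match is a description of the letters, and whether the siRNA acted on any of these transcripts was not tested. For the complement strand 1 member, *ACER2*, held a match, at a position past the end of the gene as the count table places it. The 382 genes with an 8-base match for that strand had a median of -0.03, with 18.3% lower and 16.8% higher. The 572 with only a 7-base match had a median of 0.04, with 12.1% lower and 17.5% higher, and the 11108 without one a median of 0.0024, with 12.8% lower and 13.7% higher.

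**Figure D5:**
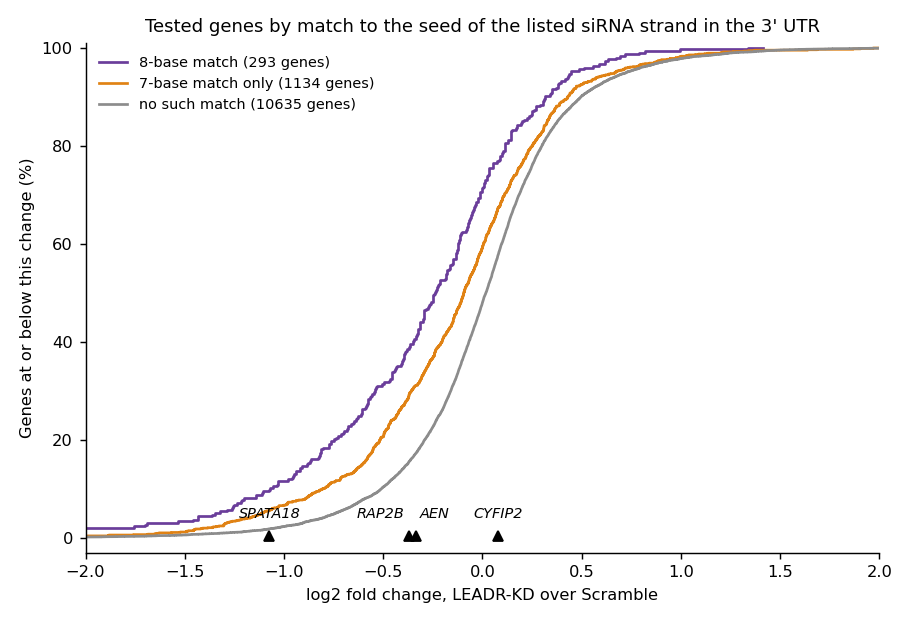
Share of genes at or below each log2 fold change (y axis, percent) against log2 fold change of LEADR-KD over Scramble (x axis) for 12062 tested genes, split by match to the seed of the listed siRNA strand. The curves for 8-base (293 genes) and 7-base matches (1134 genes) lie to the left of the curve for the 10635 genes without a match; triangles mark the 4 members with a site.

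Promoters from RefSeq (GRCh38.p14), from 250 bases before to 50 bases after the start, were matched for 27 members and searched on both strands for the 10-base p53 half-site consensus. It was found in 5 of the 27 (18.5%) and in 1786 of 27305 promoters (6.54%). Most members were chosen as genes known or reported to be switched on by p53, so these shares say nothing about the knockdown. The holders were *PLK2*, *AEN*, *RAP2B*, *FDXR* and *RPS27L*, and windows of the 3 that changed are shown, read along the gene, with the half-site in capitals.
PLK2 chr5:58460199-58460228: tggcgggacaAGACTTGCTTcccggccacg
AEN chr15:88621296-88621325: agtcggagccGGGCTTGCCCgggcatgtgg
RAP2B chr3:153162155-153162184: ggaacgcactGGGCATGCTCgccggggagg

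*PLK2* is on the minus strand and *AEN* and *RAP2B* are on the plus strand. Of these 5 genes *PLK2* rose, *AEN* and *RAP2B* fell, and *FDXR* and *RPS27L* were at -0.01 each, so members with the letters were found in each direction. Known p53 sites often lie outside this window, and nothing is drawn here about binding of p53 or p63.

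*CDKN1A*, the CDK inhibitor p21 and the best known p53 target, had 104, 138 and 133 CPM in LEADR-KD, against 98.2, 123 and 135 CPM in Scramble. The groups overlapped, with a log2 fold change of 0.07 (95% interval -0.21 to 0.36, adjusted p = 0.73). *TP63* had 199, 203 and 184 CPM in LEADR-KD, against 219, 232 and 223 CPM in Scramble, and its log2 fold change was -0.20 (SE 0.08, adjusted p = 0.0797), with no overlap between the groups. Its 3′ UTR held a 7-base match to the seed of the listed strand, as did that of *NCL*, which rose. That of *ELF3*, which fell, held 2. *KIAA0247*, *BBC3*, *TOB1*, *FBXW7*, *TP53BP1* and *FOXA1*, which fell, held none. Nor did *PMAIP1*, *PANK1*, *LIF*, *ASCC3*, *TP73*, *PPP1R13L*, *CHEK1*, *CDC25A*, *CDK1*, *CDH1*, *UPK1B* and *KRT18*, which rose.

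Outside the members, 49 of 50 further genes known as p53 targets could be tested, of which 7 rose and 8 fell, with a median log2 fold change of -0.05. Among the falls, *KIAA0247* (now *SUSD6*) had 15.6, 15.8 and 17.0 CPM in LEADR-KD, against 39.6, 47.0 and 43.0 CPM in Scramble, a log2 fold change of -1.42 (SE 0.11) that was larger in size than that of any member. *BBC3*, the BH3-only protein PUMA, fell by 1.33 on the log2 scale (SE 0.35) at low levels of 0.877, 1.6 and 1.81 CPM in LEADR-KD, against 2.41, 4.36 and 4.06 CPM in Scramble. *TOB1*, an antiproliferative relative of *BTG2*, fell by 0.74, and *FBXW7*, the substrate receptor of a ubiquitin ligase for cyclin E, by 0.70. *PMAIP1*, the BH3-only protein NOXA, rose by 0.82 (SE 0.18), with 23.2, 28.8 and 30.2 CPM in LEADR-KD against 11.3, 16.7 and 18.6 CPM in Scramble. The BH3-only genes *PMAIP1* and *BBC3* thus passed in opposite directions. *PANK1*, which makes coenzyme A, rose by 0.65, the cytokine *LIF* by 0.64 and the helicase gene *ASCC3* by 0.47. The adjusted p ran from 7.91e-06 for *KIAA0247* to 0.0261 for *LIF* among these 8 genes (edgeR). In the fits with a library left out, calls were lost for *LIF* without LEADR-KD 2 (0.121), LEADR-KD 3 (0.0709), Scramble 1 (0.0769) or Scramble 2 (0.0985), for *PANK1* without LEADR-KD 2 (0.0628), for *ASCC3* without Scramble 2 (0.0505), and for *BBC3* without Scramble 2 (0.071) or Scramble 3 (0.0507).

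In the list of p53 relatives and upstream regulators, 26 of 27 genes were tested, 3 rose, 1 fell and the median was -0.01. *TP73*, a relative of p53, rose by 0.91 (SE 0.19), with 11.5, 16.8 and 11.8 CPM in LEADR-KD, against 6.01, 8.21 and 7.10 CPM in Scramble, so that all LEADR-KD libraries were above all Scramble libraries. *PPP1R13L*, the inhibitor iASPP, rose by 0.38, *NCL*, nucleolin, by 0.34, and *TP53BP1*, the repair scaffold 53BP1, fell by 0.28. *TP73* passed at an adjusted p of 0.00521 (edgeR) and kept its call with any 1 library left out. The other calls did not: leaving out 1 library took the adjusted p up to 0.108 for *PPP1R13L* (without LEADR-KD 2, and also lost without LEADR-KD 3 or Scramble 1), to 0.124 for *NCL* (without Scramble 3, and kept only without Scramble 1) and to 0.112 for *TP53BP1* (without LEADR-KD 1, and kept only without LEADR-KD 2).

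The 20 cell cycle genes that p53 lowers through p21 were all tested. Of these 5 rose, including *CHEK1*, *CDC25A*, *CDK1* and *MCM5*, and the list had a median log2 fold change of 0.09. None of the 20 fell by edgeR's adjusted p, 1 was lower at an unadjusted p under 0.05, and DESeq2 called 1 lower. In edgeR the count was also 1 with library sizes without mitochondrial genes, with library totals, with a mean count of at least 50, without LEADR-KD 1 and without both libraries numbered 1. With the replicate number as a block 2 of the 20 were lower and 8 higher. *CHEK1*, the checkpoint kinase, had 93.8, 89.3 and 92.8 CPM in LEADR-KD, against 65.6, 61.5 and 57.1 CPM in Scramble, a log2 fold change of 0.58 (SE 0.09). The phosphatase gene *CDC25A* rose by 0.54, also with groups that did not overlap, and *CDK1* rose by 0.32. *CHEK1* and *CDC25A* passed under each of the 17 alternatives, and *CDK1* under 11 of them. In the edgeR fits with a library left out, *CDK1* lost its call without LEADR-KD 2 (adjusted p = 0.0511), LEADR-KD 3 (0.0759) or Scramble 1 (0.06). The share that changed in the 3 lists was 30.6%, 15.4% and 25%, beside 24.4% of all tested genes. In the cell cycle list all of this share was higher in LEADR-KD, whereas 12.2% of all tested genes were higher and 12.1% lower. That share rests on 5 genes, and with library totals in place of TMM 3 were higher and 1 lower. Of the further p53 targets 14.3% were higher and 16.3% lower, and of the relatives and upstream regulators 11.5% were higher and 3.85% lower.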

How the data were processed

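Counts deposited by the authors came, going by the submitters' processing notes, from HISAT2 2.0.5 alignment to hg19 and featureCounts 1.5.0-p3, whereas the methods name Salmon. The authors also deposited FPKM values, which equal the deposited counts divided by gene length and 1 constant per library. The other deposited table, with log2 fold changes and p-values of the authors' own DESeq2 1.20.0 comparison, was not used. Libraries were grouped by the labels. Genes were kept by filterByExpr (minimum count 10; 14178 of 57905 genes), scaled by TMM and tested with edgeR 4.0.16 (quasi-likelihood, no covariate, two-sided, R 4.3.3), with Benjamini-Hochberg adjustment over all tested genes, and called at an adjusted p under 0.05. SE is the size of the log2 fold change divided by the square root of F. The common biological coefficient of variation was 12.6%, and the SE of each member gives its own precision. The steps were tested on simulated data. The members and lists were chosen with earlier results of these data known. Named are all members, *MIR205HG*, *TP63*, *CDKN1A* and, per list and direction, up to 4 passing genes with the largest change; *MCM5*, *COL3A1*, *VWF*, the uroplakins, the keratins, the marker genes at 0 and the overlapping genes were named after their values were seen. A few genes that this rule takes are not reported here. The alternatives used DESeq2 1.42.0, limma 3.58.1 on log2(FPKM + 1) or log2(FPKM + 0.1), other library sizes and filters, fewer libraries and a replicate block.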

Additional observations from a re-analysis of the deposited data

How the results depend on the processing

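The limits of these data are 3 libraries a group, 1 siRNA, and library 1 of each group with a high mitochondrial share. *SPATA18*, *PLK3* and *EDA2R* had the fewest counts, and how far depth limits them was not tested. The count of higher members, 2, was 1 with library totals in place of TMM and with limma on log2(FPKM + 1) with no filter, and 1 to 2 when each library was left out in turn (1 without LEADR-KD 2 or Scramble 2). The count of lower members, 6, was 2 with limma with no filter on log2(FPKM + 0.1) and on log2(FPKM + 1), 3 without members that hold a seed match, and 3 to 5 with a library left out (3 without LEADR-KD 2, 4 without LEADR-KD 3 or Scramble 2). Members above a log2 fold change of 1 were 1 without both libraries numbered 1, and 0 to 1 with a library left out (*PLK2* without LEADR-KD 1 or Scramble 3). Members below -1, 2 in all, were 1 without both libraries numbered 1 and in the 3 limma fits, and 1 to 2 with a library left out (1 without LEADR-KD 2 or Scramble 1). Over the 3 other p53 lists, the 15 higher genes were 7 with library totals, 6 with limma on log2(FPKM + 0.1) and 5 on log2(FPKM + 1), both with no filter, and 10 to 14 with a library left out. The 9 lower genes were 5 and 2 in those limma fits and 4 to 8 with a library left out (4 without Scramble 2). *MIR205HG* was at -1.16 (adjusted p = 0.0507) with limma on log2(FPKM + 1) with no filter. The cause of these shifts was not tested.

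Among the named genes, signs turned only where the log2 fold change was 0.14 or less in size. With library totals *TP53INP1* was at -0.039 and *PHLDA3* at -0.046. With a mean count of at least 50 *TP53INP1* was at -0.0089 and *PHLDA3* at -0.012. Without both libraries numbered 1, *CCNG1* was at -0.0074, *TP53INP1* at -0.027, *PHLDA3* at -0.054 and *KITLG* at 0.030. *FDXR* was at 0.0025 with library sizes without mitochondrial genes, 0.0042 with limma on log2(FPKM + 0.1), 0.0040 in both fits on log2(FPKM + 1) and 0.0043 with no filter. With a library left out the log2 fold change ran from -0.062 to 0.24 for *CCNG1*, -0.055 to 0.34 for *FAS*, -0.083 to 0.13 for *TP53INP1*, -0.13 to 0.11 for *PHLDA3*, -0.071 to 0.19 for *CYFIP2*, -0.028 to 0.011 for *FDXR*, -0.046 to 0.17 for *POLH*, -0.082 to 0.0094 for *KITLG*, -0.087 to 0.041 for *RPS27L* and -0.045 to 0.19 for *CDKN1A*.

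The labels number the libraries 1 to 3 in each group. The deviations of same-numbered libraries correlated at 0.227, 0.00058 and 0.266, and those of the other pairings at -0.296 to 0.0755. The numbers were not taken as pairs in the main fit, and these values do not settle whether they are pairs. With the replicate number as a block 3 members were higher and 9 lower, 22 genes of the other lists were higher and 18 lower, *MIR205HG* was at -1.47 and *TP53INP1* at -0.0034. The members added by the block were *PLK3*, *GDF15*, *GADD45A* (adjusted p = 0.0199, edgeR) and *ZMAT3* (0.0128). *TP63* passed with the block (0.0292) and with a mean count of at least 50 (0.0461). Libraries 1 and 3 of each group correlated best with their own number, and library 2 did not.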
